A study of Mus musculus with 86 samples.

Results

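The kidney's proximal tubule recovers filtered solutes and proteins, and 38 genes that encode its solute carriers and endocytic receptors were followed here through ureteral obstruction. The list holds 34 solute carriers of the SLC and SLCO families, 2 endocytic receptors and 2 proteins that serve those receptors. All 38 were found among the 31054 genes of the kidney count files and among the 38277 genes of the kidney FPKM table (fragments per kilobase of transcript and 1000000 fragments). All passed the filters on low values in both experiments. Slc9a3 reached 1 FPKM in the sham libraries given UNC569 and in no other group, so its test in the FPKM data exists only through that group.

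Cells of the proximal tubule carry a brush border on the side of the urine. There, sodium-coupled carriers take up glucose, phosphate, sulphate, amino acids and carboxylates, and the receptors megalin and cubilin take up filtered proteins by endocytosis. Organic anion transporters of the opposite, blood-facing membrane take up drugs, urate and metabolic acids for secretion. The segments of the tubule, S1 to S3 from start to end, differ in the carriers that they use, and loss of these carriers is a known feature of injured tubule cells.

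Unilateral ureteral obstruction (UUO) ties off the ureter of one kidney and leads to dilation, inflammation and scarring of that kidney. In the first experiment, mouse kidneys came from 4 groups: wild-type mice after sham surgery (3 libraries used), wild-type mice after UUO (3 used), mice labelled Mertk knockout after sham surgery (4) and mice labelled Mertk knockout after UUO (4). MERTK is a receptor tyrosine kinase of macrophages. The libraries sham WT 1 and UUO WT 1 were left out under the rule that chose the members. Most members were near 0 in them, with Lrp2 at 2.15 and 18.3 counts per 1000000 reads in genes (CPM). The CPM of the libraries used are also divided by a scaling factor of each library (TMM), which these values are not. In sham WT 1, however, Slc2a2, Slc22a30 and Slc26a1 stood at 288, 274 and 178 CPM, and Slc4a4 at 115 CPM. For the first 3 genes the sham wild-type libraries used held 186 to 375, 249 to 365 and 121 to 180 CPM, but after scaling. Levels on the same scale were not compared. In the second experiment, all mice were labelled wild type and received injections: sham surgery with DMSO, the solvent (3 columns of values), sham surgery with UNC569, an inhibitor of MERTK (3), UUO with DMSO (4), and UUO with UNC569 (7 columns for 8 samples). The labels give no strain, sex, age, dose or time after surgery, and no statement on which libraries share an animal, so p-values measure the spread between these libraries only. How many animals the libraries come from, beyond the word bioreplicates in the protocol, is not given.

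The 14 count libraries held between 7.22 M and 28.45 M reads in genes (M, 1000000 reads). Sham WT 3 had 58.49% of its reads unmapped and UUO KO 4 had 32.02%. Mertk was counted at 52.6 to 79.6 CPM in sham wild-type libraries and at 59.6 to 83.5 CPM in sham libraries labelled knockout. A count over the whole gene cannot show a deletion of part of it, so the genotype remains a label in what follows. Markers of injured tubule, 10 genes including Havcr1 and Lcn2, summed to 1274 to 2484 CPM in sham wild-type libraries and 16974 to 24750.5 CPM after UUO. Whole kidneys were sequenced, so fewer tubule cells and less RNA of a gene per tubule cell cannot be told apart.

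Of the members, 31 had a promoter in the RefSeq table of mouse build GRCm38.p6, which gave 41 start sites with 250 bases before and 50 bases after each. Short motifs of the factors that act in this tubule were searched on both strands as exact letters, and the promoters that held one are printed because their genes fell after UUO in at least 3 of the 4 comparisons below. CAAAGTCCA, a motif of HNF4, was found in 1 of the 41 (2.44%, against 0.475% of all 32851 promoters), that of Slc3a1. AAAGGTCA, a core site of nuclear receptors, was found in those of Slc2a2 and Slc5a10 (4.88%, against 1.51%). TCAAGGTCA, a motif of ERR factors, matched 0 of the 41 (0.423% of all promoters). The 250 bases before each start follow, 5′ to 3′ on the strand of the gene, with the match in capitals. The match in Slc5a10 reads as the reverse complement, and no match shows that a factor binds.
Slc3a1, chr17:85028097-85028346, plus strand: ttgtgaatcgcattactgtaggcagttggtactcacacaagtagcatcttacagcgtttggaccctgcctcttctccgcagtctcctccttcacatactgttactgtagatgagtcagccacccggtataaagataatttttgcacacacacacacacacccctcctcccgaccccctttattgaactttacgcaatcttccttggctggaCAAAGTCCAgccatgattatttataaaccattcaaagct
Slc2a2, chr3:28697653-28697902, plus strand: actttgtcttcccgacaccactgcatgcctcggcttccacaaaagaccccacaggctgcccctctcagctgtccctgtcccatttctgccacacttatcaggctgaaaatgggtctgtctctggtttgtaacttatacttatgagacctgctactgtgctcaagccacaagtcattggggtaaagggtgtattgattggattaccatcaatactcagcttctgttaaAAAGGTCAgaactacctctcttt
Slc5a10, chr11:61720800-61721049, minus strand: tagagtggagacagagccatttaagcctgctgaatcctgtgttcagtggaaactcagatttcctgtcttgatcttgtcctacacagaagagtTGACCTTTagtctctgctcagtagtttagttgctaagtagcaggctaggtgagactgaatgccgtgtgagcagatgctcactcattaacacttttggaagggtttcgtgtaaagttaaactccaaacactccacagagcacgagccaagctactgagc

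After UUO in wild-type kidneys, 32 of the 38 members fell and 0 rose at an adjusted p under 0.05 (edgeR, 16395 genes tested, 16% of them lower and 23.3% higher). Their median log2 fold change was -2.98, against 0.16 over all genes. In kidneys labelled Mertk knockout, 35 fell and 1 rose (24.4% of all genes lower, 34.7% higher), with a median of -3.43 against 0.23. With DMSO, 35 fell and 1 rose (limma on log2(FPKM + 1), 15338 genes, 25.8% lower and 29.7% higher), and the median was -3.01 against 0.08. With UNC569, 37 fell and 1 rose (34.5% lower, 27.5% higher), with a median of -3.61 against -0.07. The member that rose was Slc7a12 in each case, which in the FPKM data was tested only because its obstructed libraries passed the filter. In all 4 comparisons 31 members fell, and 4 more fell in 3 of them. The 38 members took 1.69 to 2.37% of all reads in genes in sham wild-type libraries and 0.303 to 0.443% after UUO. The share in libraries labelled knockout was 2.21 to 2.89% after sham surgery and 0.221 to 0.681% after UUO, with no overlap in either genotype. Without the 5 libraries whose label notes a bad fastq file, which leaves 1 library in each wild-type group, fewer members passed in wild type. Calls lost there include Slc22a8 (log2 change -5.06) and Slc7a7 (-1.33). With the 2 left-out libraries put back, 22 members fell in wild type, and 2842 of all 16162 genes tested were lower.

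**Figure D1:**
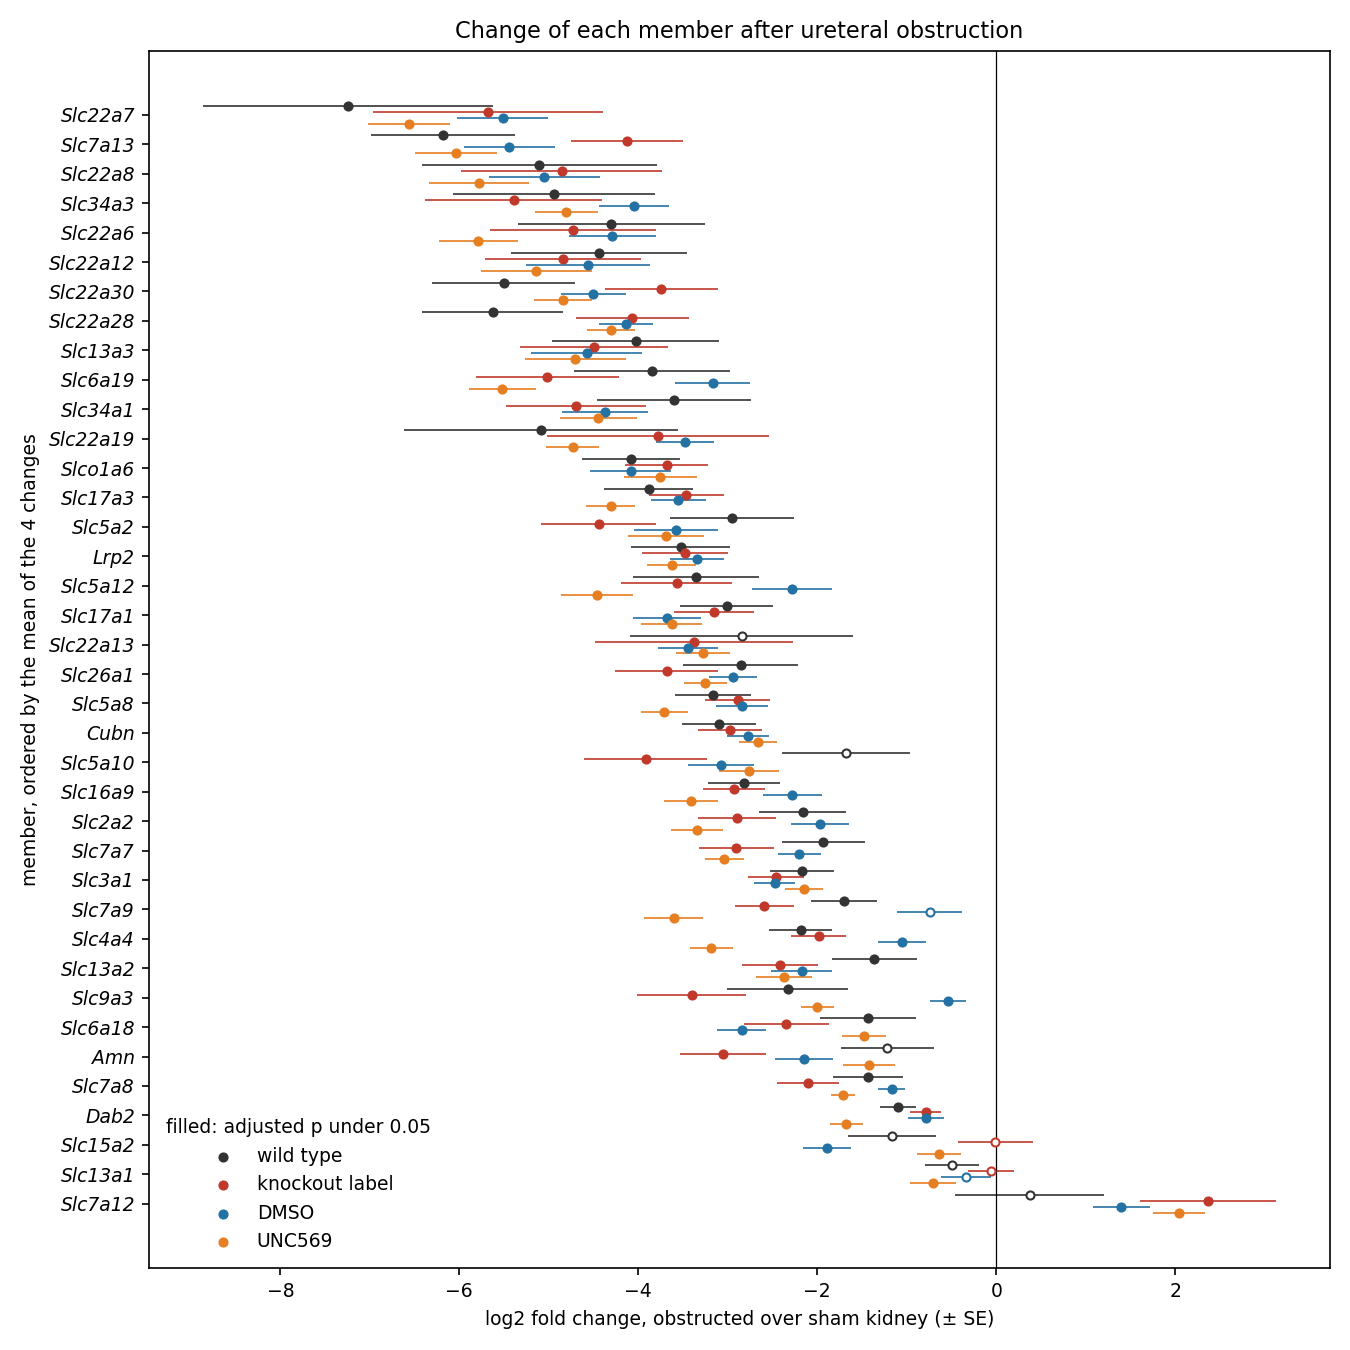
Log2 fold change of each member, obstructed over sham kidney, with its standard error, in wild type, knockout label, DMSO and UNC569. Filled points passed an adjusted p under 0.05, and all members but Slc7a12 lie left of 0 in all 4 comparisons, from Slc22a7 at the top to Slc13a1 near 0.

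The endocytic receptors fell unequally. Lrp2 encodes megalin, the large receptor for filtered proteins (ENSMUSG00000027070, chr2:69424340-69586065, minus strand, build GRCm38). It was counted at 2895, 2505 and 2031 CPM in sham wild type and at 234, 221 and 189 after UUO. The libraries labelled knockout held 2804, 2789, 2322 and 2114 CPM after sham surgery and 539, 156, 109.5 and 96.7 after UUO. No obstructed library reached the lowest sham library in either genotype, and the first obstructed knockout-labelled library held 3 or more times the level of the other 3. The log2 change was -3.53 ± 0.55 (SE) in wild type (adjusted p = 0.000242, edgeR) and -3.48 ± 0.48 with the knockout label (adjusted p = 3.41e-05). FPKM gave -3.35 ± 0.30 with DMSO and -3.63 ± 0.27 with UNC569, so Lrp2 was left at 8.67, 8.98, 9.83 and 8.10% of its sham level in wild type, knockout label, DMSO and UNC569 by the fitted values. Without UUO KO 1 the change with the knockout label was -4.38. Cubn, which encodes cubilin, the receptor that carries vitamin B12 with intrinsic factor and albumin, fell by 3.09 (wild type), 2.97 (knockout label), 2.77 (DMSO) and 2.67 (UNC569) on the log2 scale. Its level was 559.8 ± 119 CPM (SD, n = 3) in sham wild type and 65.5 ± 20.4 CPM (n = 3) after UUO.

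Amn encodes amnionless, the membrane anchor of cubilin, and its sham wild-type libraries disagreed, at 116, 89.9 and 401 CPM. After UUO they held 86.1, 111 and 63.99 CPM, which overlaps the sham values, and the log2 change of -1.22 ± 0.52 did not pass (adjusted p = 0.0771, edgeR). It passed with DESeq2 and with every gene kept (-1.37 to -1.32) and without sham WT 2, sham WT 3 or UUO KO 1 (-1.68 to -1.22), and it was -0.28 without sham WT 4. It fell with the knockout label (-3.06 ± 0.48), where 4 sham libraries held 374, 403, 368 and 319.8 CPM and the obstructed ones 80.8, 44.9, 23.3 and 27.04. It also fell with DMSO (-2.15 ± 0.33) and UNC569 (-1.42 ± 0.29). Dab2, the adaptor that couples megalin to clathrin (ENSMUSG00000022150, chr15:6299788-6440712, plus strand), stood at 685, 716 and 511 CPM in sham wild type and 320.5, 266 and 305 after UUO. Its values were 635, 719, 614 and 475 and 366, 369, 372 and 308 CPM in the libraries labelled knockout. These groups did not overlap, and the fitted values left 46.6% in wild type and 57.9% of the sham level with the knockout label. Dab2 is also made by macrophages and other cells outside the tubule. Markers of macrophages summed to 107 to 189.9 CPM in sham wild type and 1379.8 to 2586 after UUO, and their part in the Dab2 level was not tested.

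**Figure D2:**
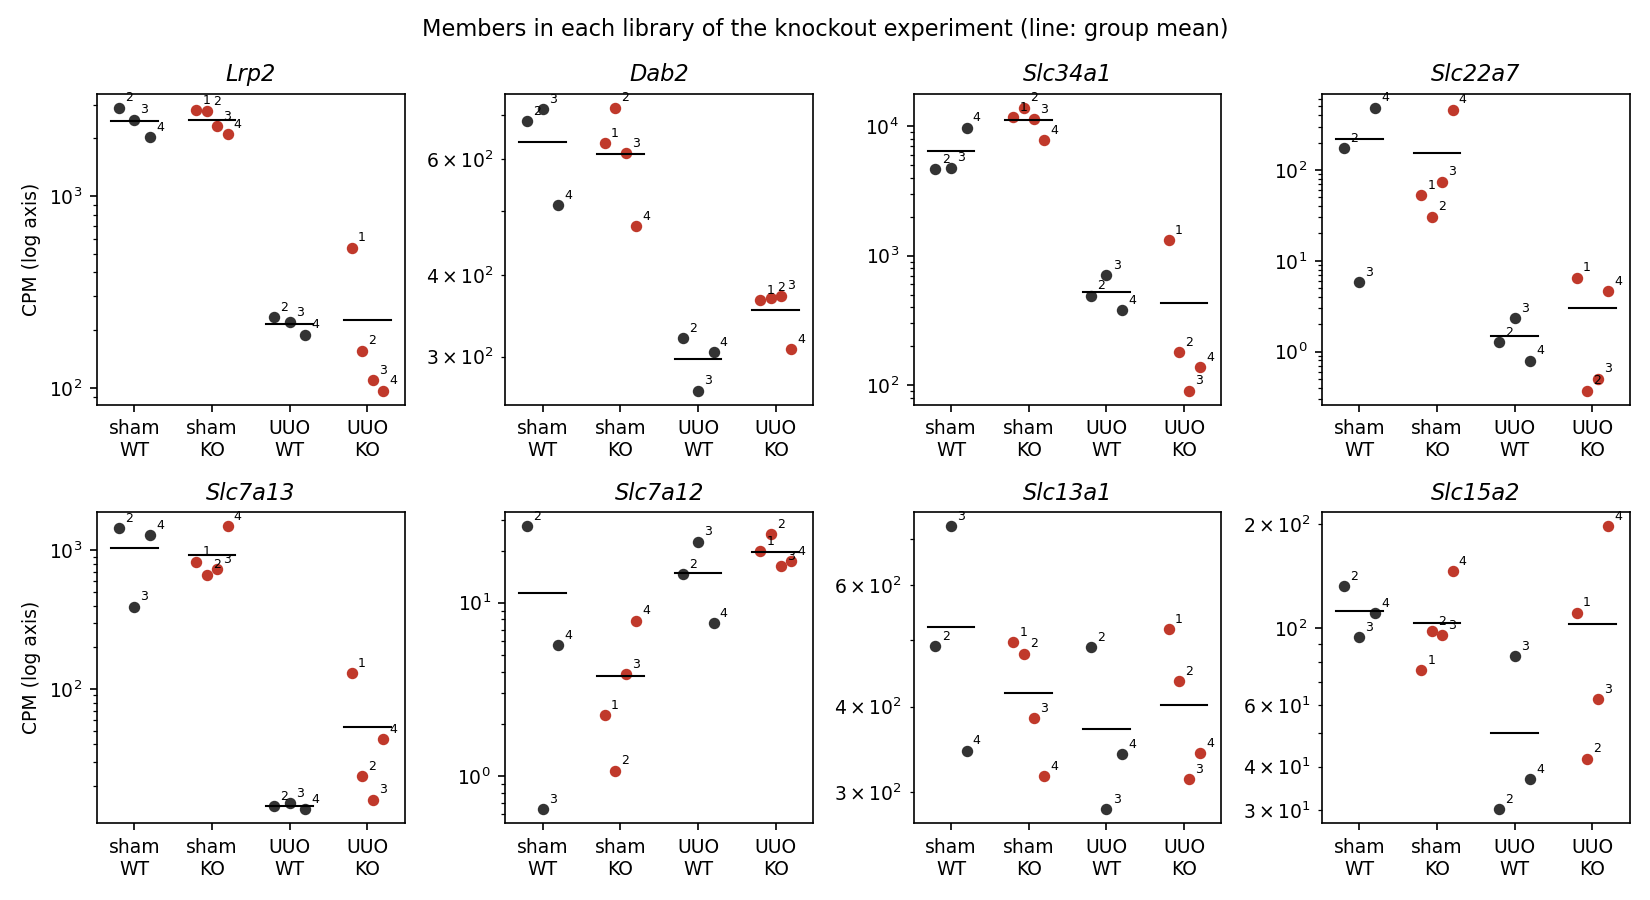
CPM on a log axis of 8 members in each library of the knockout experiment, with replicate numbers and a line at each group mean. Lrp2, Slc34a1, Slc22a7 and Slc7a13 fall without overlap within each genotype, Dab2 falls less, and Slc13a1 overlaps between surgeries. UUO KO 1 lies above the other obstructed knockout-labelled libraries for Lrp2 and Slc34a1.

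Phosphate carriers were among the most abundant members. Slc34a1 encodes NaPi-IIa, the main phosphate carrier of the brush border (ENSMUSG00000021490, chr13:55398187-55415592, plus strand). It held 4651, 4783 and 9737 CPM in sham wild type and 489.8, 709 and 381 CPM after UUO, a log2 change of -3.60 ± 0.86 (adjusted p = 0.00439, edgeR). With the knockout label it went from 11754, 13905, 11344 and 7849 CPM to 1319, 180.5, 90.7 and 137 CPM, a change of -4.70 ± 0.78. The groups stood apart in both genotypes, with UUO KO 1 far above its group. Slc34a3, the related carrier NaPi-IIc, fell to 3.05, 1.84 and 1.55 CPM from 50.3, 81.6 and 66.7 in wild type and to 9.62, 0.586, 0.735 and 0 from 126, 158, 119 and 46.1 with the knockout label. Its log2 changes were -4.94 ± 1.13, -5.39 ± 0.99, -4.05 ± 0.39 and -4.81 ± 0.35 in wild type, knockout label, DMSO and UNC569.

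The sulphate carriers parted ways. Slc26a1 encodes SAT1, through which sulphate leaves the cell, and it fell by 2.85 (wild type), 3.68 (knockout label), 2.94 (DMSO) and 3.25 (UNC569) on the log2 scale. Slc13a1 encodes NaS1, through which sulphate enters from the urine (ENSMUSG00000029700, chr6:24088283-24168092, minus strand), and it did not pass in 3 of the 4 comparisons. It held 490.2, 732 and 345 CPM in sham wild type and 487, 284 and 341 after UUO. In the libraries labelled knockout the values were 496, 478, 385 and 317 and 518, 435, 313 and 342 CPM. The ranges overlap in both genotypes, and the log2 changes of -0.49 ± 0.30 and -0.06 ± 0.26 did not pass (adjusted p = 0.21 and 0.859, edgeR). FPKM gave 92.8, 65.3 and 74.1 in sham and 76.8, 67.4, 49.5 and 52.4 in obstructed kidneys with DMSO, a change of -0.33 ± 0.28 that did not pass either (adjusted p = 0.327, limma). With UNC569 it fell by 0.71 on the log2 scale (adjusted p = 0.0217), from 133, 93.8 and 100.0 FPKM to 41.6 (lowest), 69.8 (median) and 107 (highest). That call was lost with median-of-ratios scaling (log2 -0.54) and without sham UNC569 1 (-0.56).

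All 6 carriers of sugars and monocarboxylates had lower fitted levels after UUO in each comparison. Slc5a2, the glucose carrier SGLT2 that gliflozin drugs block, held 274, 377 and 343 CPM in sham wild type and 49.5, 47.6 and 31.2 CPM after UUO (log2 -2.95 ± 0.70, adjusted p = 0.00414, edgeR). With the knockout label, the values went from 705, 873, 569.7 and 221 to 72.5, 14.7, 8.18 and 13.7 CPM (log2 -4.44 ± 0.65). In sham kidneys the fourth knockout-labelled library held less than the other 3, and no obstructed library reached it. Slc2a2, the glucose exit route GLUT2, fell by 2.16 (wild type), 2.90 (knockout label), 1.97 (DMSO) and 3.35 (UNC569). Slc5a10, the mannose and fructose carrier SGLT5, overlapped between surgeries in wild type, with 94.6, 95.9 and 316 CPM in sham and 31.6, 113 and 13.6 after UUO (log2 -1.68 ± 0.72, adjusted p = 0.078, edgeR). That change passed with every gene kept (-1.83) and without sham WT 3 or UUO WT 3 (-2.90 to -2.06), and it was -0.88 without sham WT 4. It fell in the other 3 comparisons, by 3.92 (knockout label), 3.08 (DMSO) and 2.76 (UNC569). Of the lactate carriers, Slc5a8 fell by 3.16, 2.89, 2.84 and 3.71 and Slc5a12 by 3.36, 3.57, 2.28 and 4.46 in the same order of 4 comparisons. Slc16a9, a monocarboxylate carrier of the SLC16 family, fell by 2.82, 2.93, 2.28 and 3.41.

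Carriers of amino acids and peptides covered the widest range of changes. Slc7a13 encodes AGT1, an acidic amino acid carrier of the S3 segment (ENSMUSG00000041052, chr4:19818725-19842218, plus strand). It went from 1454, 394 and 1289.6 CPM to 14.4, 15.1 and 13.7 in wild type, which left 1.38% by the fitted values (log2 -6.18 ± 0.80, adjusted p = 5.74e-05, edgeR). With the knockout label it went from 832, 669, 731 and 1496 to 131, 23.6, 15.98 and 43.7 CPM (log2 -4.12 ± 0.63), and FPKM gave -5.44 ± 0.51 with DMSO and -6.04 ± 0.46 with UNC569. Slc6a19 encodes B0AT1, the main neutral amino acid carrier of the brush border. It fell by 3.84 (wild type), 5.02 (knockout label), 3.17 (DMSO) and 5.52 (UNC569). Slc6a18, its relative in the later tubule, fell by 1.44, 2.34, 2.84 and 1.48. The wild-type sham libraries of Slc6a18 held 555, 197 and 899 CPM and the obstructed ones 151, 335 and 125. They overlap, and its adjusted p of 0.046 (edgeR) was lost without any 1 of sham WT 2 or 4, sham KO 1, UUO WT 2 or 4, and UUO KO 2 or 4 (log2 -1.53 to -0.94).

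The cystine carrier is built from rBAT, encoded by Slc3a1, and its partner, encoded by Slc7a9. Slc3a1 fell by 2.17, 2.46, 2.48 and 2.15 in wild type, knockout label, DMSO and UNC569. Slc7a9 fell by 1.70, 2.59 and 3.60 in wild type, knockout label and UNC569, while with DMSO its change of -0.75 ± 0.36 did not pass (adjusted p = 0.092, limma). Slc7a7 and Slc7a8, which carry amino acids out across the blood-facing membrane, fell by 1.93 and 1.43 in wild type and by 2.90 and 2.11 with the knockout label. Slc15a2 encodes PEPT2, the peptide carrier of the S3 segment (ENSMUSG00000022899, chr16:36750177-36784962, minus strand). Wild-type libraries held 132, 94.3 and 111 CPM after sham surgery and 30.2, 83.3 and 36.8 after UUO (log2 -1.17 ± 0.49, adjusted p = 0.073, edgeR). This passed with DESeq2 and with every gene kept (-1.32 to -1.27) and without UUO WT 3, UUO KO 2 or UUO KO 4 (-1.74 to -1.17). Libraries labelled knockout held 75.7, 97.96, 95.7 and 146 and 111, 42.2, 62.5 and 197 CPM (log2 -0.01 ± 0.42, adjusted p = 0.986), with obstructed libraries both below and above the sham range. In FPKM it fell with DMSO (-1.89 ± 0.27, adjusted p = 1.45e-05, limma) and with UNC569 (-0.64 ± 0.25, adjusted p = 0.0309). The call with UNC569 was lost without sham UNC569 1, 2 or 3 or UUO UNC569 3 (-0.69 to -0.56) and with median-of-ratios scaling (-0.48).

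Slc7a12 encodes ASC-2, a light chain of the same family as Slc7a13, and it was the member that went up (ENSMUSG00000039710, chr3:14480697-14505830, plus strand). In the libraries labelled knockout it stood at 2.24, 1.07, 3.87 and 7.88 CPM after sham surgery and 19.9, 24.8, 16.3 and 17.5 after UUO. The 4 obstructed libraries lay above all 4 sham libraries (log2 2.37 ± 0.76, adjusted p = 0.0156, edgeR). That call was lost without sham KO 1 or sham KO 2 (log2 1.94 to 2.07). In FPKM, DMSO libraries went from 1.79, 0 and 0.631 to 2.48, 2.14, 4.07 and 5.55 (log2 1.40 ± 0.32). UNC569 libraries went from 0.592, 0.663 and 0.571 FPKM to 3.46 (lowest), 6.04 (median) and 7.55 (highest) (log2 2.04 ± 0.29). Wild-type libraries held 27.7, 0.644 and 5.68 CPM in sham and 14.7, 22.5 and 7.63 after UUO, with full overlap (log2 0.37 ± 0.84, adjusted p = 0.752, edgeR). The level was low throughout. In the FPKM data the gene reached 1 FPKM in 12 columns, 11 of them from obstructed kidneys, so it passed the filter only through the groups where it was high and had to differ there.

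The organic anion group, with 11 members, held the largest falls. Slc22a7 encodes OAT2 (ENSMUSG00000067144, chr17:46432183-46438457, minus strand), and with all libraries kept it had the lowest log2 change of the 38 members in each of the 4 comparisons. Slc7a13 was lower without sham WT 4 in wild type and without sham DMSO 2, sham DMSO 3 or UUO DMSO 1 with DMSO. With the knockout label Slc22a8 was lower without UUO KO 1 (-8.15) and with the replicate block, and Slc34a3 without sham KO 4. With 1 library left out at a time, Slc22a7 went no lower than -6.34 with that label. Besides Slc22a8, lower values were reached by Slc34a3 (-8.07), Slc22a6 (-7.11), Slc22a12 (-6.64), Slc13a3 (-6.40), Slc34a1 (-6.36) and Slc6a19 (-6.35). Its first place there therefore depends on single libraries. Sham wild-type libraries held 175, 5.79 and 485 CPM of Slc22a7 and obstructed ones 1.28, 2.33 and 0.798. Sham libraries labelled knockout held 52.4, 30.7, 74.2 and 463 CPM and obstructed ones 6.53, 0.373, 0.505 and 4.61. The surgeries did not overlap within a genotype, but the sham level varied 77.2-fold between libraries (after adding 0.5 CPM to each). The log2 changes were -7.24 ± 1.62 in wild type (adjusted p = 0.00295, edgeR), -5.68 ± 1.29 with the knockout label (adjusted p = 0.00177), -5.52 ± 0.51 with DMSO and -6.56 ± 0.46 with UNC569. In FPKM the sham libraries were closer together, at 87.1, 151 and 127 with DMSO and 118, 203 and 159.6 with UNC569.

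Slc22a6 and Slc22a8 encode OAT1 and OAT3, the main basolateral transporters of organic anions. Slc22a6 went from 796, 684 and 1566 to 48.4, 57.5 and 48.7 CPM in wild type (log2 -4.30 ± 1.05, adjusted p = 0.00511, edgeR). Slc22a8 went from 462, 445 and 719.5 to 14.5, 24.9 and 7.73 CPM (log2 -5.11 ± 1.31, adjusted p = 0.00711). With the knockout label, obstructed libraries held 207, 18.1, 10.1 and 6.67 CPM of Slc22a6 and 106, 3.09, 1.47 and 4.12 of Slc22a8, so the first stood far above the other 3, and sham libraries held 1839, 1707, 1551 and 1315 and 906, 1098, 829.5 and 492. With UNC569 they fell by 5.79 and 5.78. Slc22a12, the urate carrier URAT1, fell by 4.44, 4.84, 4.56 and 5.14 in wild type, knockout label, DMSO and UNC569, but 24.7% of its 100-base stretches are shared with another gene's transcripts, which include the overlapping Nrxn2. For Slc3a1 the share is 23.1%, with the neighbouring Prepl, and for Slc22a13 21.8%, with a pseudogene, so these counts are uncertain to that extent.

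Slc22a28 and Slc22a30 belong to a cluster of near-identical rodent transporters. They fell by 5.63 and 5.50 in wild type and 4.07 and 3.74 with the knockout label. Of their 100-base stretches, 37.01% and 21.1% occur in other genes of the cluster. The count files tally reads that map to several places apart from the genes, so such reads can be missing from both counts. How the FPKM values treat such reads is not known, and the level of each gene is uncertain. Slc22a13 and Slc22a19, relatives that carry urate and steroid sulphates, varied most among sham libraries together with Slc22a7. Slc22a19 held 193, 1.45 and 195 CPM in sham wild type and 2.17, 7.30 and 2.04 after UUO, which overlap (log2 -5.09 ± 1.53, adjusted p = 0.0169, edgeR). That call was lost without UUO WT 2 or UUO WT 4 (log2 -4.80 to -4.78), and the call with the knockout label (log2 -3.78 ± 1.24) was lost without sham KO 4 (-1.86). Slc22a13 did not pass in wild type (log2 -2.84 ± 1.24, adjusted p = 0.0842, edgeR), though it did with DESeq2 (-2.96) and without sham WT 3 or sham KO 4 (-3.51 to -2.95). It fell with the knockout label (-3.38 ± 1.11, lost without sham KO 4, -1.60) and fell by 3.44 and 3.28 with DMSO and UNC569. Slco1a6, an organic anion transporter of the other family, and the phosphate-family urate exporters Slc17a1 and Slc17a3 fell in all 4 comparisons. In wild type their log2 changes were -4.08 ± 0.55, -3.01 ± 0.52 and -3.89 ± 0.49.

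The last group moves dicarboxylates, protons and bicarbonate. Slc13a3, the dicarboxylate carrier NaDC3 of the blood side, fell by 4.03, 4.49, 4.57 and 4.70 in wild type, knockout label, DMSO and UNC569. Slc13a2, the citrate carrier NaDC1 of the brush border, held 52.6, 19.6 and 75.9 CPM in sham wild type and 12.1, 31.1 and 14.7 after UUO. These overlap, and its log2 change of -1.36 ± 0.48 (adjusted p = 0.0349, edgeR) was lost without sham WT 2, sham WT 4, UUO WT 2 or UUO WT 4 (-1.40 to -0.97). In the other 3 comparisons Slc13a2 fell without overlap, by 2.42, 2.18 and 2.37. Slc4a4 encodes NBCe1, the exit of bicarbonate, and it fell by 2.18, 1.99, 1.05 and 3.18. Slc9a3 encodes NHE3, the sodium and proton exchanger of the brush border (ENSMUSG00000036123, chr13:74121457-74169442, plus strand). It held 225, 102 and 143 CPM in sham wild type and 11.9, 69.6 and 11.8 after UUO (log2 -2.33 ± 0.67, adjusted p = 0.0133, edgeR), a call lost without UUO WT 2 or UUO WT 4 (-1.94). In the FPKM table Slc9a3 stood at only 0.573, 0.757 and 0.573 FPKM with DMSO after sham surgery and 0.273, 0.171, 0 and 0.0574 after UUO. Its DMSO change of -0.54 ± 0.20 (adjusted p = 0.0303, limma) was lost when sham DMSO 1, 2 or 3 or UUO DMSO 3 or 4 was left out (-0.57 to -0.49).

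Ordered by the fall in wild type, the leading members were Slc22a7, Slc7a13, Slc22a28, Slc22a30, Slc22a8, Slc22a19, Slc34a3, Slc22a12, Slc22a6 and Slco1a6. Among the 10 largest falls of each comparison, 5 members appeared in all 4, namely Slc22a6, Slc22a7, Slc22a8, Slc22a12 and Slc7a13. Across the 38 members, the changes in wild type and with DMSO, which share no library, had Spearman's rho of 0.882 and Pearson's r of 0.869. The changes with the knockout label and with UNC569 had a rho of 0.857 and an r of 0.895. These describe the list and carry no p, since members share libraries, base composition and tubule content. By role, the organic anion carriers had the lowest median in wild type (-4.44) and amino acid and peptide carriers the highest (-1.70). For the 9 members known from the S1 segment the median log2 changes were -2.95, -3.57, -2.28 and -3.69 in wild type, knockout label, DMSO and UNC569. For the 7 members known from the S3 segment they were -5.09, -3.74, -3.48 and -4.73, and the S3 genes Slc7a13 and Slc7a12 lie near opposite ends of the order. The wild-type median of -5.09 is the value of Slc22a19, whose sham and obstructed libraries overlap. Slc15a2, named above for the S3 segment, is not among the 7.

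Unequal falls of related members were tested on their ratio within each library. This removes the scaling between libraries, except for low genes, where the constant added before the log also shifts the ratio. For 11 pairs in each experiment, the difference in log2 ratio between surgeries was averaged over the genotypes or injections and set against every exchange of surgery labels within them (exact, two-sided, adjusted over 11 pairs). Lrp2 fell more than Dab2, by a log2 difference of -2.75 in the knockout experiment (adjusted p = 0.00314, exact) and -2.26 in the inhibitor experiment (adjusted p = 0.000524, exact). Lrp2 also fell more than Cubn, though by less, at -0.55 and -0.77 (adjusted p = 0.00524 and 0.000524, exact). The largest gap was between Slc7a12 and Slc7a13, at 7.31 and 7.46, followed by the sulphate carrier Slc13a1 against the dicarboxylate carrier Slc13a3, at 4.52 and 4.12. Both pairs had the smallest raw p that these designs gave, 0.00143 and 0.000238 (exact).

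Slc6a19 fell more than Slc6a18, by 2.96 and 2.18 (adjusted p = 0.00314 and 0.00218, exact), but in the inhibitor experiment the difference was 0.33 with DMSO and 4.04 with UNC569. Slc7a7 fell more than Slc7a8, with log2 differences of -0.72 and -1.18 (adjusted p = 0.00673 and 0.000524, exact). A further 3 pairs passed in the knockout experiment. There, Slc34a3 fell more than Slc34a1 (log2 difference 1.31, adjusted p = 0.0196, exact), Slc22a8 more than Slc22a6 (0.86, adjusted p = 0.0402) and Slc17a3 more than Slc17a1 (0.58, adjusted p = 0.00314). In the inhibitor experiment they stood at 0.02, 0.38 and 0.28, and did not pass after adding 1 FPKM. After adding 0.1 FPKM all 3 passed there too, at 0.94, 0.77 and 0.57. In the knockout experiment, putting back the 2 left-out libraries ended the calls on Lrp2 and Cubn (-0.27), Slc34a1 and Slc34a3 (0.44) and Slc22a6 and Slc22a8 (0.62). The call on Slc22a6 and Slc22a8 was lost when any of 9 single libraries was left out (0.67 to 0.93), namely sham WT 2, 3 and 4, sham KO 1, 2 and 3, UUO WT 4, and UUO KO 2 and 3. Neither Slc5a2 against Slc5a12 nor Slc3a1 against its partner Slc7a9 passed in either experiment, where both injections or genotypes were averaged. In the inhibitor experiment the 2 injections went opposite ways. The log2 difference was -1.73 with DMSO and 1.45 with UNC569 for Slc3a1 against Slc7a9, and -1.30 and 0.77 for Slc5a2 against Slc5a12.

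**Figure D3:**
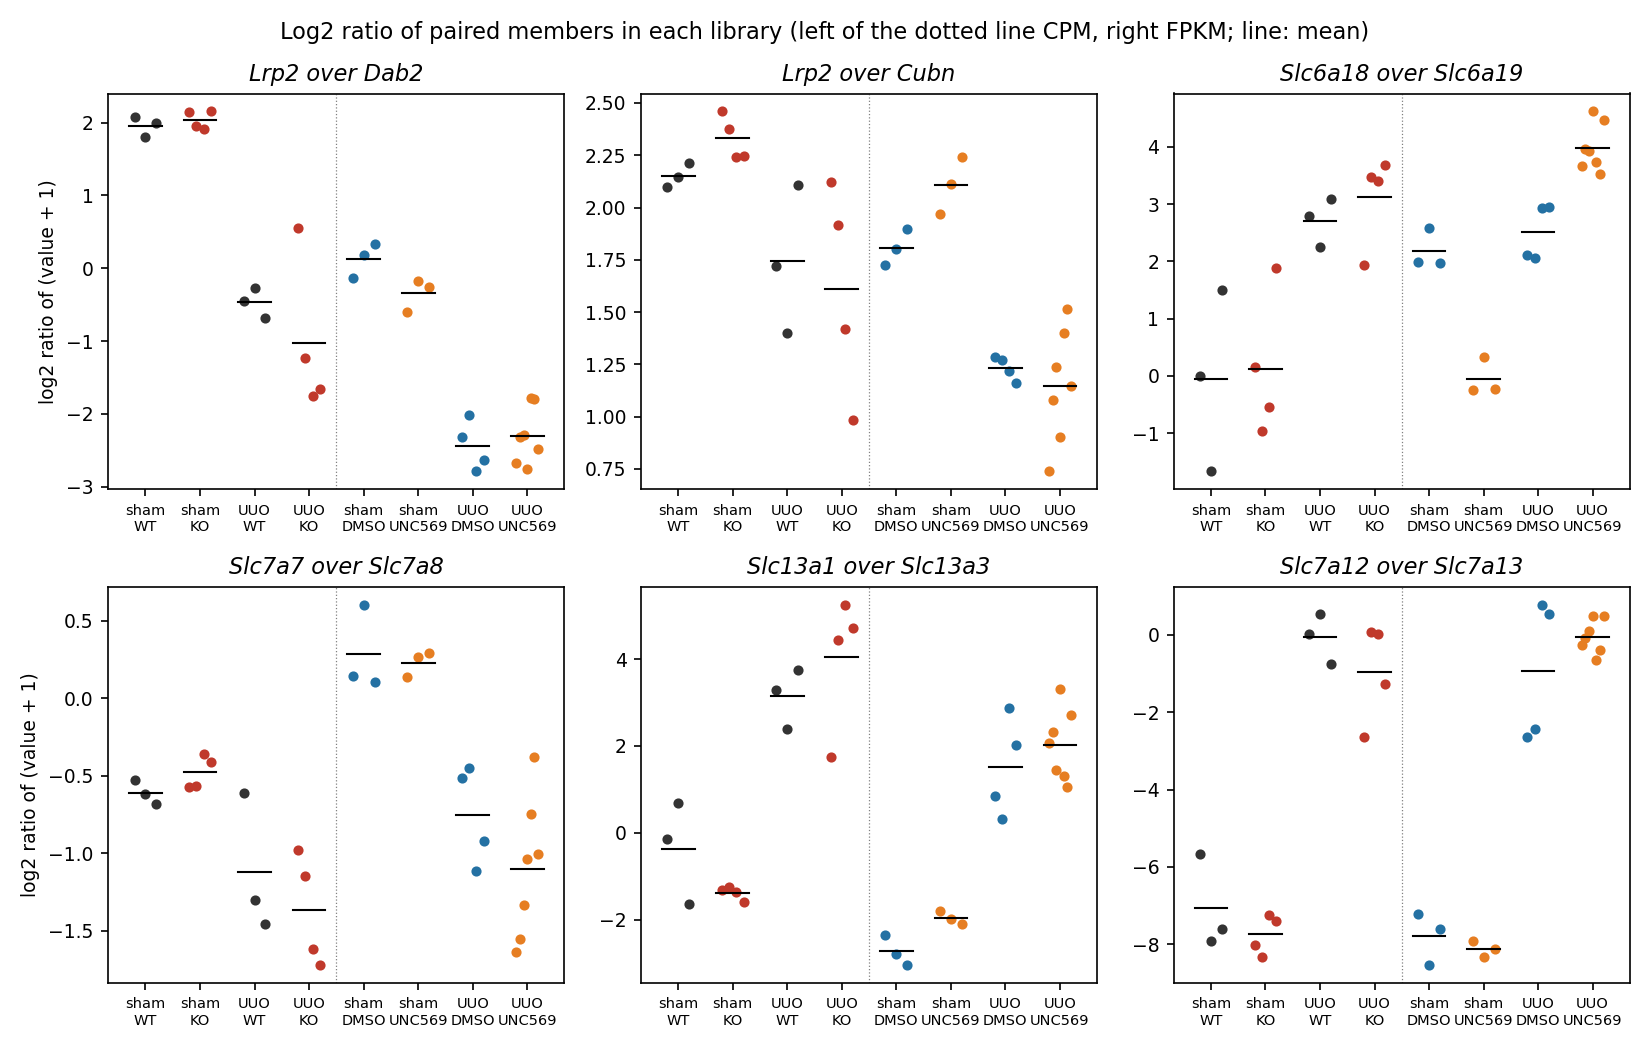
Log2 ratio of 6 pairs of members in each library, from CPM left of the dotted line and FPKM right of it, after adding 1 to each value, with a line at each group mean. The Lrp2 to Dab2 ratio is lower after UUO in both experiments, the Slc7a12 to Slc7a13 and Slc13a1 to Slc13a3 ratios are higher, and the Slc6a18 to Slc6a19 ratio of sham DMSO libraries lies near that of obstructed ones.

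Libraries of 1 group differed in how much of the members they kept. UUO KO 1 was the highest of its group for 34 of the 38 members, at a median of 3.46 times the median of the other 3 libraries. UUO UNC569 6 was the highest of 7 for 31 members, at 1.97 times. UUO DMSO 1 and 2 held the highest value for 18 members each, and UUO DMSO 3 the lowest for 30. Injured-tubule markers in UUO KO 1 summed to 16286 CPM, the lowest of its group (16286 to 26452). The other obstructed groups did not show this order. UUO WT 3, the highest of its group for 25 members, had the group's highest sum, 24750.5 CPM. The sum was 14572 FPKM in UUO UNC569 6 (group 10900 to 15019) and 12312, 10454 and 6873 FPKM in UUO DMSO 1, 2 and 3 (group 6873 to 12312). A link between members kept and injury markers was not tested.

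Sham libraries varied most in 3 organic anion carriers. Slc22a19 ranged 121-fold, Slc22a7 77.2-fold and Slc22a13 79.5-fold over the 7 sham libraries, while Slc3a1 ranged 2.08-fold, Lrp2 1.43-fold and Slco1a6 1.63-fold. Of the other members known from the S3 segment, Slc7a12 ranged 24.6-fold, at low levels, and Slc6a18 5.26-fold. Slc7a13 stood at 3.80-fold, Slc5a8 at 2.79-fold, Slc15a2 at 1.92-fold and Slc22a30 at 1.49-fold. Slc22a19, Slc22a7 and Slc22a13 were high in sham WT 2, sham WT 4 and sham KO 4 and low in the other 4. The 7 listed S3 members summed to 3368, 3558 and 3943 CPM in those 3 libraries and to 1062 to 2142 CPM in the other 4. Slc22a7 and Slc22a19 are among these 7, so the sum in part repeats the values that set the 3 libraries apart. Sham WT 3, the library with most unmapped reads, had the lowest value of its group for 21 members, and fibroblast markers in the 3 sham wild-type libraries summed to 334 (lowest), 434 (median) and 6960.1 (highest) CPM. The part of mapping and fibroblast content in this spread was not tested.

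Between genotypes, 0 of 38 members passed in obstructed kidneys, in sham kidneys or in the difference of their UUO responses (edgeR, which called 0, 1 and 0 genes of 16395 and had 1902, 2575 and 4466 genes at an unadjusted p under 0.05). DESeq2 called 6 genes lower and 1 higher, 288 lower and 27 higher, and 514 lower and 1079 higher. Without sham WT 4, edgeR called 1539 genes lower and 2463 higher in sham kidneys and 3063 genes lower and 2064 higher in the difference of responses, and without the bad-fastq libraries 263 genes lower and 702 higher and 1266 genes lower and 523 higher. Among the members, Amn was higher with the knockout label in sham kidneys without sham WT 4 (1.91), and the difference of responses was -2.90 for Amn and -3.17 for Slc5a10. Without the bad-fastq libraries Slc7a12 was lower with the label in sham kidneys (-2.50), with a difference of responses of 2.90. The members' log2 differences, knockout label over wild type, ran from -1.84 to 1.89 after UUO, with a median of -0.00251, and from -1.60 to 0.85 after sham surgery, with a median of 0.08. Differences of this size were not called with 3 to 4 libraries a group, which does not show that they are absent. Across all genes the sham difference went with GC content, with a median of -0.33 among the genes of lowest GC, when genes were cut into 4 equal parts, and 0.35 among those of highest GC, and its part in the members' values was not tested.

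UNC569 was compared with DMSO within each surgery. In sham kidneys 10 members were higher with UNC569 and 0 lower (limma, 13.3% of all genes higher and 6.05% lower), namely Slc7a9, Slc5a12, Slc6a19, Slc4a4, Slc9a3, Slc2a2, Slc5a8, Slc22a19, Dab2 and Slc7a8. Slc7a9 held 15.2, 17.2 and 18.05 FPKM with DMSO and 92.1, 66.7 and 51.5 with UNC569 (log2 1.96 ± 0.39, adjusted p = 0.003). Slc5a12 held 26.6, 20.96 and 28.003 and 113, 64.3 and 90.7 FPKM (log2 1.76 ± 0.48, adjusted p = 0.0167). Slc6a19 held 53.1, 46.9 and 52.6 and 200.2, 127 and 172 FPKM (log2 1.67 ± 0.45, adjusted p = 0.0159). For these 3 genes every UNC569 library lay above every DMSO library. The calls on Slc5a12 and Slc6a19 were each lost without sham DMSO 2, sham UNC569 1 or sham UNC569 3 (log2 1.57 to 1.73 and 1.52 to 1.63). Slc4a4 differed by 1.66 ± 0.29 and Slc9a3 by 1.60 ± 0.22, the latter from under 1 FPKM with DMSO to 4.35, 3.06 and 4.59 with UNC569. Slc9a3 entered the test only through these UNC569 libraries and so had to differ. Slc34a1, Slc22a8, Slc22a12, Slc17a1 and Slco1a6 did not pass, with log2 differences of -0.17, -0.11, 0.07, -0.02 and 0.02.

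The count of 10 fell to 3 without sham DMSO 2, to 3 without sham UNC569 3 and to 5 without sham UNC569 1, and to 6 with median-of-ratios scaling of the columns. That scaling turned the split of all genes from 928 lower and 2033 higher to 1657 lower and 1194 higher, and moved their median from 0.07 to -0.06. The sham difference went with transcript length and GC content over all genes. Its median was -0.06 in the shortest of 4 equal parts of the genes and 0.23 in the longest, 0.32 at the lowest GC and -0.12 at the highest. The 10 members that were higher have a median transcript length of 4428 bases and a GC content of 45.8%, against 2505 bases and 49.8% for the other 28. Hepatocyte markers summed to 71.1 to 406 FPKM with DMSO and 46.3 to 54.8 with UNC569, and those of macrophages to 164 to 208 and 65.7 to 132. The part of length, GC content and these cells in the members' difference was not tested.

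**Figure D4:**
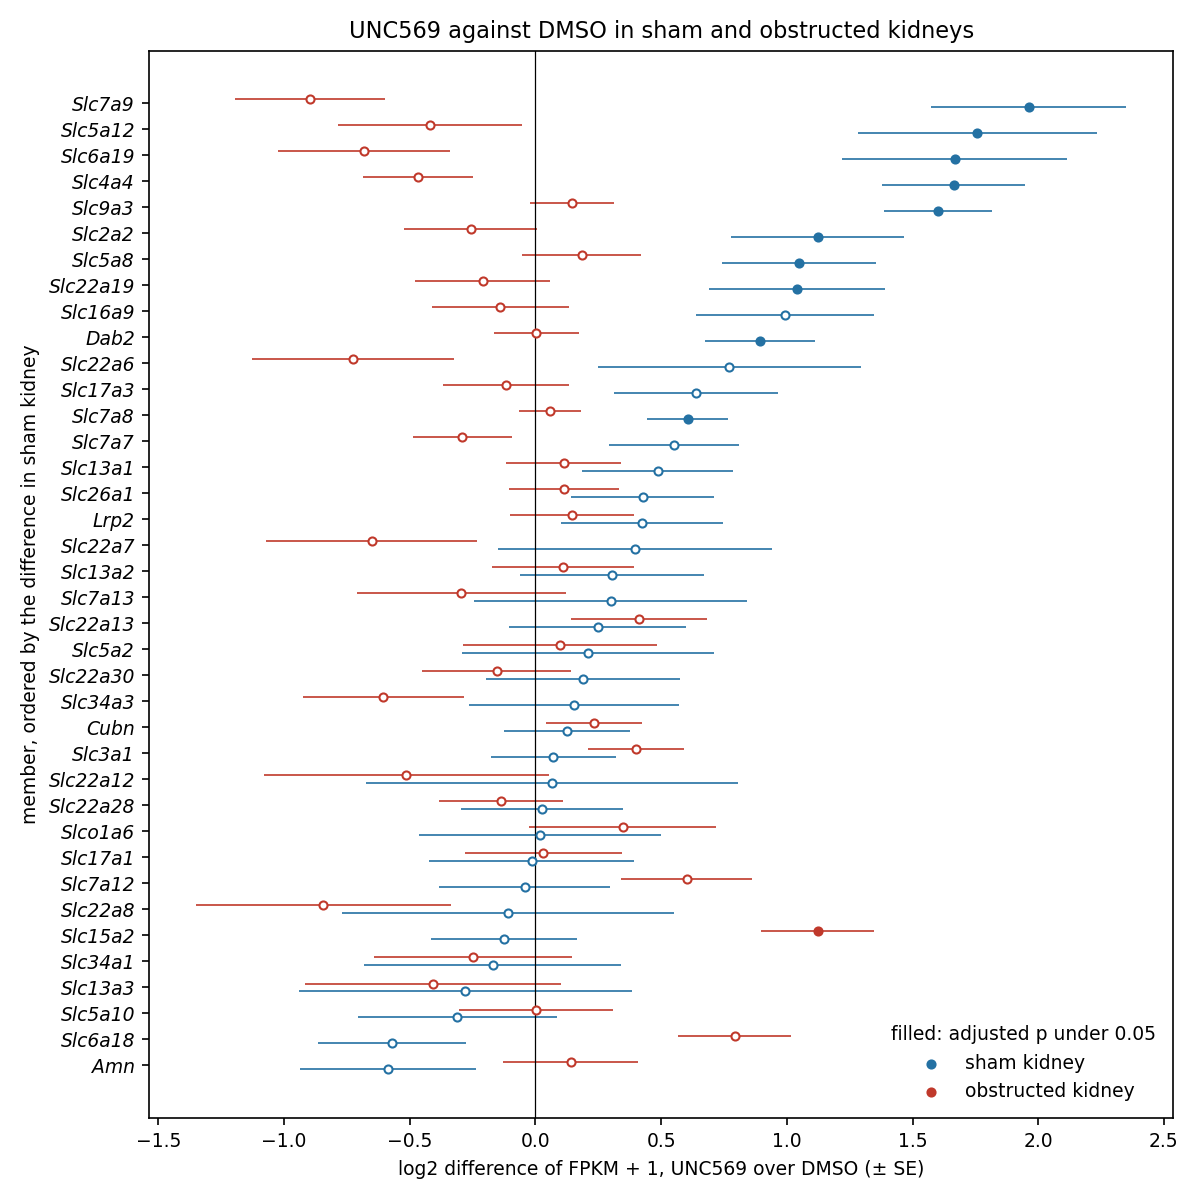
Log2 difference of each member between UNC569 and DMSO with its standard error, in sham and in obstructed kidneys, ordered by the sham difference. Filled points passed an adjusted p under 0.05: 10 members in sham kidneys, up to Slc7a9 at 1.96, and Slc15a2 alone in obstructed kidneys.

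After UUO, Slc15a2 was the 1 member that differed between UNC569 and DMSO (limma, 0.248% of all genes higher and 1.05% lower). It held 16.9, 15.5, 9.99 and 6.84 FPKM with DMSO and 18.4 (lowest), 26.7 (median) and 36.4 (highest) FPKM with UNC569, and the groups did not overlap (log2 1.12 ± 0.22, adjusted p = 0.0303). The call was lost without UUO DMSO 2, 3 or 4 or UUO UNC569 2 or 5 (log2 0.89 to 1.25). The other 37 members had log2 differences between -0.90 and 0.79. The UUO response itself differed between injections for 9 members (limma, 13.4% of all genes lower with UNC569, 6.17% higher). It was lower with UNC569 for Slc7a9, Slc6a19, Slc5a12, Slc4a4, Slc9a3, Slc2a2 and Dab2, by -2.86 to -0.89 on the log2 scale, and higher for Slc15a2 (1.25) and Slc6a18 (1.36). These 7 genes are among the 10 that were higher with UNC569 in the sham libraries used in the same contrast. Slc9a3, in the test only through its sham UNC569 libraries, had to differ here as well, and its call was lost after adding 0.1 FPKM (-1.89). For Slc7a9, DMSO libraries went from 16.8 ± 1.48 FPKM (SD, n = 3) to 9.68 ± 1.56 (n = 4), and UNC569 libraries from 70.1 ± 20.5 (n = 3) to 5.36 ± 3.35 (n = 7). Without sham DMSO 2 the 9 became 4 lower and 0 higher, without sham UNC569 3 there were 4 lower, and without UUO DMSO 3 there were 11 lower. Median-of-ratios scaling turned the split of all genes from 2053 lower and 947 higher to 1324 lower and 1615 higher, and their median from -0.13 to 0.04.

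Proteins that hold or traffic the members moved with them in part. Of 14 partner genes, 9 fell and 1 rose in wild type, 11 fell and 1 rose with the knockout label, and the same numbers, 11 and 1, applied with DMSO and with UNC569. Among all genes, 16, 24.4, 25.8 and 34.5% were lower and 23.3, 34.7, 29.7 and 27.5% higher in these 4 comparisons. Cltrn, the collectrin that brings Slc6a19 to the brush border, fell by 3.07, 3.08, 3.43 and 3.47 in wild type, knockout label, DMSO and UNC569. Pdzk1, the scaffold that binds Slc34a1 and other carriers, fell by 2.61, 3.72, 3.15 and 3.44. Lrpap1, the chaperone of megalin, fell by 2.14, 2.84, 2.87 and 2.71. Atp1b1, a subunit of the sodium pump, fell by 1.51 in wild type. Slc3a2, the heavy chain that Slc7a7 and Slc7a8 need, had -0.47 in wild type (adjusted p = 0.275, edgeR) and fell by 1.50 with the knockout label. Ocrl, a lipid phosphatase of endosomes, rose by 0.52, 0.99, 0.55 and 0.38. Of the endosomal and adaptor genes, Clcn5 fell by 1.02, 0.70, 0.55 and 1.73, while Gipc1 had 0.83 in wild type (adjusted p = 0.132, edgeR). Of the scaffolds of the brush border, Slc9a3r1 fell by 1.05 and Pdzk1ip1 by 1.13 in wild type, and Slc9a3r2 had 0.62 (adjusted p = 0.118, edgeR).

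Transcription factors of the proximal tubule were lower too, by less than most members. Of 10 such genes, 8 fell in wild type, 10 with the knockout label, 8 with DMSO and 10 with UNC569, against 16, 24.4, 25.8 and 34.5% of all genes. Hnf4a, the factor that matures proximal tubule cells, fell by 1.70, 2.95, 2.41 and 2.72. Ppara, which drives fatty acid oxidation, fell by 2.46, 3.32, 1.07 and 2.48, and its partner Ppargc1a by 1.92, 1.24, 0.79 and 1.89. Maf fell by 1.31, 1.44, 0.57 and 1.93, and Rxra by 0.54, 1.48, 0.77 and 1.11. Hnf4g fell by 1.07, 1.08 and 1.06 in wild type, knockout label and UNC569 and had -0.17 with DMSO (adjusted p = 0.442, limma). Esrrg fell by 1.40, 0.57 and 2.31 in the same 3 comparisons and had 0.04 with DMSO (adjusted p = 0.889). Esrra did not pass in wild type (-0.95, adjusted p = 0.0922, edgeR) and fell by 2.86 with the knockout label. In sham kidneys Ppara, Esrrg, Maf, Ppargc1a and Hnf4g were higher with UNC569, by 1.71, 1.86, 1.15, 1.06 and 1.00 (limma), alongside the 10 members.

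Other genes of the same cells fell as the members did. The counts below stand against 16, 24.4, 25.8 and 34.5% of all genes lower in wild type, knockout label, DMSO and UNC569. The shares of all genes higher were 23.3, 34.7, 29.7 and 27.5%. Of 27 tested transporters of the proximal tubule outside the list, 20 fell and 1 rose in wild type (median -2.20), with Abcc2 at -2.60, Abcg2 at -2.20, Slc22a5 at -2.06 and Slc6a20b at -3.86. Of 20 brush border enzymes and other proximal genes, 15 fell and 1 rose (median -2.30), with Gatm at -4.26, Kap at -4.35, Acmsd at -5.44 and Mep1a at -2.53. Of 15 genes of the thick limb and distal nephron, 6 fell in wild type and 14 with the knockout label, with medians of -1.57 and -2.09, so lower values were not limited to the proximal tubule. Macrophage markers rose for 10 of 10 genes in each of the 4 comparisons, injured-tubule markers for 9, 10, 10 and 10 of 10, and podocyte markers rose for 4 and fell for 0 of 7 in wild type, with 1 higher and 3 lower with DMSO. Fibroblast markers rose for 5, 9, 8 and 9 of 9. Urothelium markers rose for 1, 4, 5 and 4 of 5, and adipocyte markers rose for 0 and 3 of 6 in wild type and knockout label and fell for 0 and 4 of 5 with DMSO and UNC569. Hepatocyte markers summed to at most 260.4 CPM in the wild-type kidney libraries used.

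Most members were low outside the kidney. In sham DMSO liver, Slc2a2 stood at 177 FPKM, Slc26a1 at 132, Slc22a30 at 74.6 and Slc3a1 at 56.00, against 53.01, 77.7, 62.1 and 238 FPKM in sham DMSO kidney. Slc2a2, Slc26a1 and Slc22a30 are also the 3 members with the highest CPM in the left-out library sham WT 1. In sham DMSO lung, Slc16a9 stood at 37.1 FPKM, Slc15a2 at 23.5 and Dab2 at 14.6, against 36.9, 47.8 and 85.3 in kidney. Cubn was at 0 and 0.0144 FPKM in liver and lung, and Slc34a1 at 0.0494 and 0.105 FPKM. The tables were normalised separately, so these levels are set side by side and not tested.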

How the data were processed

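RNA-seq libraries of mouse kidney were used, 14 of 16 as gene counts and 17 columns as FPKM. Per the labels' protocols, libraries were made with a poly(A) kit that does not mark strand. The deposited counts are reads per gene from STAR, and the unstranded column was used. Per the submitters' processing notes, the tools were edgeR, STAR, Trim Galore and FastQC and the builds mm10 and hg38, with no role stated for each. The program that made the deposited FPKM values is not given in the sources used here, and their depth is unknown.

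Counts were tested with edgeR 4.0.16 in R 4.3.3 (quasi-likelihood test, TMM scaling, filterByExpr, 16395 genes). For FPKM, limma 3.58.1 was run on log2(FPKM + 1) for 15338 genes with at least 1 FPKM in at least 3 columns, so fold changes of low genes are understated. Adjusted p-values are Benjamini-Hochberg over all genes tested, with 0.05 as the threshold. All groups of an experiment shared 1 fit. CPM of the libraries used is the count per 1000000 reads in the genes tested, divided by the library's TMM factor. These factors were 0.813 to 0.862 in sham and 1.15 to 1.23 in obstructed libraries. CPM of the libraries left out is the count per 1000000 reads in genes, without that factor. Pairs were tested by exact permutation. The scripts were tested on simulated data. There, UUO against sham in wild type was called for 7 of 99 genes changed 2-fold and 55 of 97 changed 4-fold. With DMSO it was called for 53 of 100 and 99 of 100. A missing call, above all in the counts, therefore does not show that a gene was unchanged.

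Other settings tried for counts were a replicate block, DESeq2 1.42.0, scaling by RLE, every gene kept, and unscaled counts for the pairs, and for FPKM a pseudocount of 0.1, every gene kept, and scaling by the median of ratios. Others were the libraries left out by rule put back, libraries with a bad fastq note removed, and each library left out. The members and lists were chosen with earlier results of these data known. All members, partners and transcription factors could be named, though some of the last 2 lists are counted but not reported singly here, and from other lists at most the 4 genes with the smallest p in wild type. Human samples and other mouse tissues, apart from the liver and lung levels given, were not used here.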

Additional observations from a re-analysis of the deposited data

Results flagged for a closer look

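Single libraries stood apart from their group in 5 cases on the log scale, by the gap to the nearest library relative to the whole range, out of 38 members in each of 4 groups. Chance gives about 1 in 20 of these checks, each of 1 member in 1 group, so 5 cases are not more than chance would give. UUO KO 1 was high for Cubn (122.9 CPM) and for Slc17a1 (189.4 CPM). Dab2 was low in UUO KO 4 (307.7 CPM), and Slc6a18 was high in sham KO 4 (1039 CPM). UUO UNC569 6 was high for Slc4a4 (30.85 FPKM). On the linear scale, 16 members stood apart in obstructed libraries labelled knockout, 5 in sham libraries labelled knockout, 0 in obstructed DMSO libraries and 10 in obstructed UNC569 libraries.

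The response to UUO differed between UNC569 and DMSO by the interaction term of the limma fit for 9 members. The log2 difference was -2.86 for Slc7a9, -2.35 for Slc6a19, -2.18 for Slc5a12, -2.13 for Slc4a4, -1.46 for Slc9a3, -1.38 for Slc2a2 and -0.89 for Dab2. Slc9a3 entered the test only through its sham UNC569 libraries. It was 1.25 for Slc15a2 and 1.36 for Slc6a18. The part of length, GC content and other cells in these differences was not tested.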

How the results depend on the processing

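Without the libraries noted to have a bad fastq file, which leaves 1 sham and 1 obstructed wild-type library that are assumed to vary like the other groups, 19 members fell in wild type, against 32. In the same setting 1 member was lower with the knockout label in sham kidneys, 1 was higher in the difference of the UUO responses between genotypes, and Slc7a12 in wild type turned to -0.98. With the 2 left-out libraries put back, 0 members rose with the knockout label (3831 of 16162 genes higher) and 22 fell in wild type (2842 of 16162 lower). Median-of-ratios scaling left 6 members higher with UNC569 in sham kidneys. The ratio of Slc5a2 to Slc5a12 in the inhibitor experiment turned to 0.028 with a pseudocount of 0.1. In that setting 9 pairs passed in the inhibitor experiment, against 6.

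With each library left out in turn, the members that fell numbered 28 to 35 in wild type, 33 to 35 with the knockout label (0 to 1 rose), 34 to 36 with DMSO and 34 to 37 with UNC569. Between genotypes, 0 to 1 member was higher in sham kidneys and 0 to 2 were lower in the difference of responses. UNC569 against DMSO gave 3 to 11 members higher in sham kidneys and 0 to 2 higher and 0 to 1 lower after UUO, and its difference of responses gave 4 to 11 lower and 0 to 2 higher. Pairs called numbered 8 to 9 and 6 to 7. The sign turned within these ranges for Slc7a12 in wild type (-0.25 to 2.06), for Slc13a1 (-0.29 to 0.0436) and Slc15a2 (-0.53 to 0.25) with the knockout label, and for the ratio of Slc34a1 to Slc34a3 in the inhibitor experiment (-0.0536 to 0.12). The cause of these changes was not tested.

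The fit with the replicate number as a block had 29 members lower in wild type, 34 lower and 1 higher with the knockout label. Same-numbered libraries had correlations of -0.29 to 0.166 in their deviations from the group means. With 3 to 4 libraries a group, this cannot show whether same-numbered libraries share an animal or a batch. DESeq2 called 34 members lower in wild type (3277 of 16395 genes), RLE factors 32 (2986 of 16395) and no filter 35 (2928 of 25014). Groups of 3 to 4 libraries, and an unknown depth in the FPKM data, limit what could be told apart.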
